A study of Rattus norvegicus with 6 samples.

Results

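The genes described here are 9 members of the interferon response: the transcription factors Irf1, Irf7 and Irf9 and the induced genes Mx1, Mx2, Isg15, Ifit2, Ifit3 and Rsad2. They were found by symbol among the 22081 genes of the deposited table, and 9 of 9 passed the filter on low counts that left 15367 genes. RNA was sequenced from 3 rupture-prone aneurysms, dissected unruptured at a communicating artery (lesion), and from what remained of the circle of Willis, the arterial ring at the base of the brain, of the same 3 animals. Female Sprague Dawley rats, bought at 10 weeks of age, had carotid and related arteries and a renal artery ligated and the ovaries removed, and ate chow with 8% salt and 0.12% 3-aminopropionitrile, an inhibitor of lysyl oxidase, until day 63. Lesion and circle of Willis therefore share every operation and both diets, and no tissue of an unoperated rat was compared. Each library comes from a whole tissue piece, so fewer cells of a type and less RNA per cell cannot be told apart.

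Interferons are secreted proteins that alert cells to viral or self nucleic acids. Type I interferons bind a receptor on nearly all cells, whose kinases phosphorylate STAT proteins. With IRF9 these form a complex that binds the interferon-stimulated response element in the promoters of genes such as Mx1 and Isg15. Interferon gamma uses another receptor and STAT pairs that bind the gamma-activated site, and IRF1 is among its early targets. IRF7 is both a product of the response and the factor that raises interferon alpha transcription.

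The libraries held 65823027 to 70705938 counts each. The lesion of animal 2 stood apart by myelin and choroid plexus transcripts. Summed myelin markers were at 7915 CPM (counts scaled to library size) there, against 808.5 and 972.5 CPM in the other lesions. The circles of Willis had 210.1 to 772.9 CPM. Choroid plexus markers were at 5776 CPM there, against at most 178.9 CPM in any other library. Most of that sum came from Ttr. Kl, Folr1, Otx2 and Clic6 were also highest there, but Kcnj13 was not, with 2056 counts, against 2761 to 5309 in the circles of Willis. Neuron markers, at 51.8 CPM there, were higher in the circles of Willis of animals 2 and 3 (63.5 and 98.9 CPM). Microglia markers were at 345 CPM there and 406.2 CPM in the lesion of animal 3. Summed smooth muscle markers were at 3132 to 8872 CPM in the lesions and 5664 to 17090 CPM in the circles of Willis, so the labelled arterial tissue was present in each library.

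RefSeq promoters (build GRCr8, 250 bases before to 50 after the start) were found for 6 of the 9 genes. They were searched on both strands for the cores of the 2 elements, GAAANNGAAA for the response element and TTCNNNGAA for the gamma-activated site. The first was in 3 of the 6, those of Ifit3, Irf7 and Rsad2, against 3.77% of all 27457 promoters, and in 48 of 114 promoters (42.1%) of the other pathway genes. The second was in those of Irf1 and Irf9, against 8.68% of all promoters and 21.9% of the other pathway genes' promoters. The stretches around these matches are shown for the genes whose promoter held either core. Capitals mark the match, and each reads 5′ to 3′ on the strand of its gene.
Ifit3 (chr1:241527242-241527331, plus strand): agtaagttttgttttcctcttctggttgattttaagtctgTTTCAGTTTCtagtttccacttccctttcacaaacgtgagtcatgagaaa
Irf7 (chr1:205800043-205800132, minus strand): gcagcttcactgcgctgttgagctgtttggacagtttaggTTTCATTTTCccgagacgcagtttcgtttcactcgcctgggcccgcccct
Rsad2 (chr6:48788218-48788307, minus strand): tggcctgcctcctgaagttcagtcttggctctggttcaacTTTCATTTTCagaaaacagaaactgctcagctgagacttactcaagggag
Irf1 (chr10:38417752-38417841, plus strand): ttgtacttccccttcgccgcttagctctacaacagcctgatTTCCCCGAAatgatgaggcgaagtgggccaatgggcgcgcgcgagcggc
Irf9 (chr15:33065696-33065785, plus strand): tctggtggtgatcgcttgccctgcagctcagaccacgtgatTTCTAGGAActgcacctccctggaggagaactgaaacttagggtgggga

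The matches begin 44, 69 and 147 bases before the start in Ifit3, Irf7 and Rsad2, and 142 and 99 bases before it in Irf1 and Irf9. Mx1 held neither core in its window. Such a match is a string of letters and not a measured binding site, and no binding was assayed in these animals.

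The first question was whether the lesion differs from the remaining artery of the same rat. None of the 9 genes differed at an adjusted p under 0.05 when edgeR fitted animal and tissue together (quasi-likelihood F test), and neither did any of the 15367 genes tested (0.0%). Among genes past an unadjusted p of 0.05, which made up 8.63% of the table on the higher side in lesions and 12% on the lower side, none of the 9 was found (0 and 0). DESeq2, which called 1831 genes at an adjusted p under 0.05, and limma-voom, which called 0, also called 0 of the 9. None lay over 1.5-fold higher in the lesion of all 3 animals (2.75% of all genes) or over 1.5-fold lower (5.51%). The median size of the mean log2 ratio, lesion over circle of Willis in CPM with a prior count of 2, was 0.10 over the 9 genes and 0.33 over all genes.

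**Figure D1:**
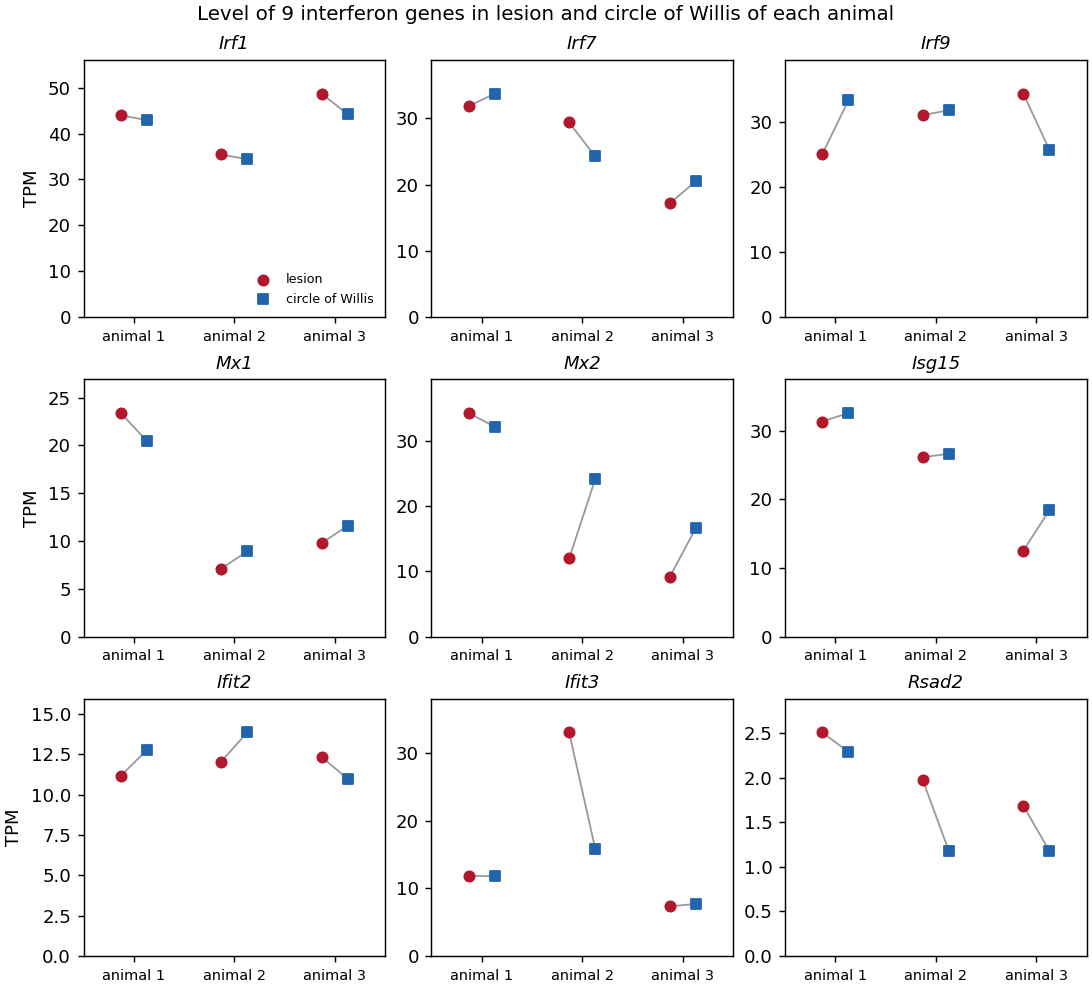
TPM, the share of each gene among all transcripts, in the lesion (red circles) and the circle of Willis (blue squares) of each animal, with a line joining the pair and the axis starting at 0. For Mx1, Isg15 and Irf7 the means of the animals spread more widely than any pair, and both libraries of animal 1 are highest, whereas Irf9 and Ifit2 vary as much within a pair as between pairs.

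In TPM, a scale that corrects for gene length, the 6-library mean was highest for Irf1 at 41.6, then Irf9 at 30.2, Irf7 at 26.2, Isg15 at 24.6, Mx2 at 21.4, Ifit3 at 14.6, Mx1 at 13.5, Ifit2 at 12.2 and Rsad2 at 1.80. Libraries of neighbours in this order overlapped, with the exception of Irf1 and Irf9, whose ranges of 34.40 to 48.7 TPM and 25.0 to 34.35 TPM did not overlap, and of Rsad2, whose highest library at 2.51 TPM was below every library of the others.

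Among the transcription factors, Irf1 (chromosome 10, 39109522 to 39116531 in the files' Rnor6 build), which activates genes of interferon gamma and of antigen presentation, had 44.0, 35.4 and 48.7 TPM in the lesions of animals 1, 2 and 3, against 42.9, 34.4 and 44.2 TPM in their circles of Willis. The groups overlapped, and in both tissues animal 2 was lowest and animal 3 highest. The log2 ratios were 0.16, -0.02 and 0.14, with a mean of 0.09 ± 0.06 (SE, n = 3; edgeR adjusted p = 0.655). The 95% interval from limma-voom reached from 0.857-fold to 1.33-fold.

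Irf7 (chromosome 1, 214248837 to 214252456) had 31.8, 29.4 and 17.2 TPM in the lesions, against 33.7, 24.3 and 20.5 TPM in the circles of Willis. Both tissues followed the order of animals 1, 2 and 3 from high to low, and the groups overlapped. The difference was positive in animals 1 and 2 and negative in animal 3, with log2 ratios of 0.04, 0.22 and -0.25 (edgeR adjusted p = 1.0) and an interval of 0.770-fold to 1.31-fold.

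Irf9 (chromosome 15, 34282936 to 34288138), the DNA-binding partner of STAT proteins, had 25.0, 31.1 and 34.4 TPM in the lesions, against 33.3, 31.8 and 25.7 TPM in the circles of Willis. Here the order of animals in lesions was the reverse of that in circles of Willis. The mean log2 ratio was 0.01 ± 0.21 (SE, n = 3; edgeR adjusted p = 0.979), with an interval of 0.726-fold to 1.40-fold.

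The Mx genes encode dynamin-like GTPases that trap viral components. Mx1 (chromosome 11, 37891156 to 37914983) had 23.4, 7.12 and 9.79 TPM in the lesions, against 20.5, 8.90 and 11.6 TPM in the circles of Willis. Both libraries of animal 1 were above the other 4, and the lesion was the higher of the pair in animal 1 only. The log2 ratios were 0.31, -0.38 and -0.24, with a mean of -0.10 ± 0.21 (SE, n = 3; edgeR adjusted p = 0.762).

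Mx2 (chromosome 11, 38035450 to 38059950) had 34.4, 12 and 9.10 TPM in the lesions, against 32.3, 24.2 and 16.7 TPM in the circles of Willis. The lesion thus held fewer transcripts in animals 2 and 3, with ratios of 0.475 and 0.548, but not in animal 1, with a ratio of 1.16. The mean log2 ratio of -0.58 ± 0.40 (SE, n = 3) did not pass in edgeR (adjusted p = 0.311). Without animal 1 it was -0.94, with an unadjusted p under 0.05 but an adjusted p of 0.0966 in edgeR. Beside it, summed endothelial markers were at 588.3 and 656.4 CPM in the lesions of animals 2 and 3, against 1477 and 1530 CPM in their circles of Willis, and at 1362 against 1478 CPM in animal 1. Their part in the Mx2 values was not tested. Mx1 and Mx2 are neighbouring and similar genes, so reads could have been split between them in the counting.

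Isg15 (chromosome 5, 173624310 to 173626248), a ubiquitin-like protein attached to other proteins, had 31.4, 26.2 and 12.5 TPM in the lesions, against 32.6, 26.7 and 18.4 TPM in the circles of Willis. The pairs of animals 1 and 2 were nearly equal, and animal 3 was lowest in both tissues. The mean log2 ratio was -0.19 ± 0.19 (SE, n = 3; edgeR adjusted p = 0.555).

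The Ifit proteins bind foreign RNA and lie side by side on chromosome 1. Ifit2 (252894663 to 252900726) was the steadiest of the 9 genes, with 11.2, 12.1 and 12.3 TPM in the lesions, against 12.8, 13.9 and 10.98 TPM in the circles of Willis. The groups overlapped, and the highest library was 1.26 times the lowest. Its mean log2 ratio was -0.05 ± 0.13 (SE, n = 3; edgeR adjusted p = 0.847), with an interval of 0.737-fold to 1.26-fold.

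Ifit3 (252906234 to 252911382) had 11.9, 33.0 and 7.32 TPM in the lesions, against 11.8, 15.8 and 7.69 TPM in the circles of Willis. Only the pair of animal 2 differed visibly, with a ratio of 2.00, against 1.10 and 0.954 in animals 1 and 3. The mean log2 ratio of 0.36 ± 0.33 (SE, n = 3; edgeR adjusted p = 0.448) rested on that animal and was 0.03 without it. Among its neighbours Ifit2 was not high in that lesion, with 1731 counts, against 1723 to 2025 in the other 5 libraries. Ifit1bl had 1148 counts in the lesion of animal 2 and 245 to 400 in the other 5 libraries, and Ifit1, which did not pass the filter, had 155 counts there and 1 to 34 elsewhere. Ifit1bl and Ifit1 were named after their values were seen, and reads of such similar genes could have been split between them. This is the lesion with the myelin and choroid plexus transcripts, whose part in the value was not tested.

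Rsad2 (chromosome 6, 45655954 to 45669148), which encodes viperin, an enzyme that makes a chain-terminating nucleotide, had 2.51, 1.98 and 1.69 TPM in the lesions, against 2.29, 1.18 and 1.18 TPM in the circles of Willis. It was higher in the lesion of 3 of 3 animals, with ratios of 1.19, 1.61 and 1.43. The lesions of animals 2 and 3 nevertheless lay below the circle of Willis of animal 1. The mean log2 ratio was 0.48 ± 0.12 (SE, n = 3), which did not pass in edgeR (adjusted p = 0.314). Its interval, 0.894-fold to 2.10-fold, includes no difference.

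**Figure D2:**
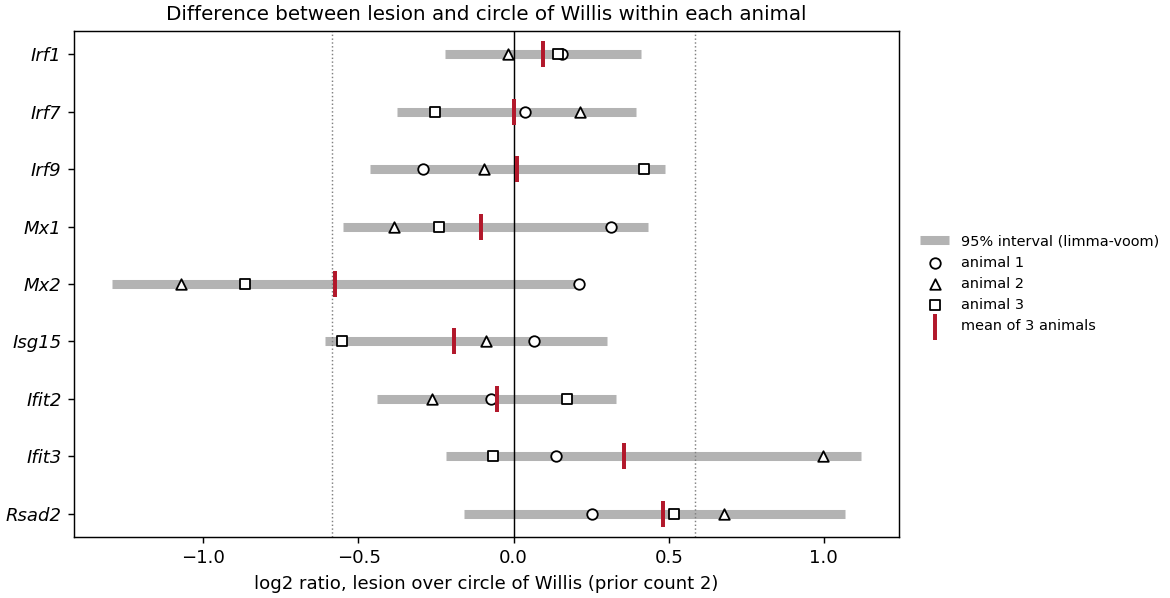
Log2 ratio of lesion over circle of Willis for each gene and animal (open symbols), their mean (red bar) and the 95% interval of limma-voom (grey). Dotted lines mark 1.5-fold in either direction. Each interval includes 0, from the narrow one of Irf1 to those of Mx2, Isg15, Ifit3 and Rsad2, which reach past 1.5-fold on a single side.

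Apart from Irf9 and Ifit2, the genes varied more between animals than between tissues, an aspect examined after the values were seen. More animals than tissues were compared, so a gene with neither difference would still tend to a larger animal share. The animal took a median of 81.9% of the sum of squares of log2 CPM over the 9 genes, against 41.5% over all genes, and the tissue 3.9% against 27.5%. The animal's share was 94.7% for Mx1, 93.3% for Irf1, 93.2% for Irf7 and 89.3% for Isg15. It was 17.7% for Ifit2 and 0.975% for Irf9, where 75.2% and 98.9% fell to neither animal nor tissue.

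An edgeR test of any difference between the 3 animals gave an unadjusted p under 0.05 for 6 of the 9 genes, Irf1, Irf7, Mx1, Mx2, Isg15 and Ifit3, against 10.4% of all genes. The lowest was that of Mx1 (edgeR adjusted p = 0.463), and no gene of the table passed at an adjusted p under 0.05 (0.0%). The count rested in part on the lesion of animal 3: it was 2 of 9 without that library, where 9.07% of all genes passed, and 4 or 5 without any other single library, where 4.67% to 17.8% of all genes did.

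Both libraries of animal 1 were above the other 4 in CPM for 5 of the 9 genes, Irf7, Mx1, Mx2, Isg15 and Rsad2, against 11.7% of all genes. The exceptions had other orders: animal 3 was highest for Irf1 and animal 2 for Ifit3. Among the other 119 pathway genes tested, 25 had the animal 1 pattern. The haemoglobin transcripts of blood had the same order of animals as Irf7, with summed CPM of 3592, 1039 and 261.2 in the lesions of animals 1, 2 and 3, against 1732, 535.9 and 445.7 in their circles of Willis. Their part in the animal differences was not tested. Both pieces of a rat came from the same dissection, so a difference between rats and a difference in handling cannot be told apart.

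**Figure D3:**
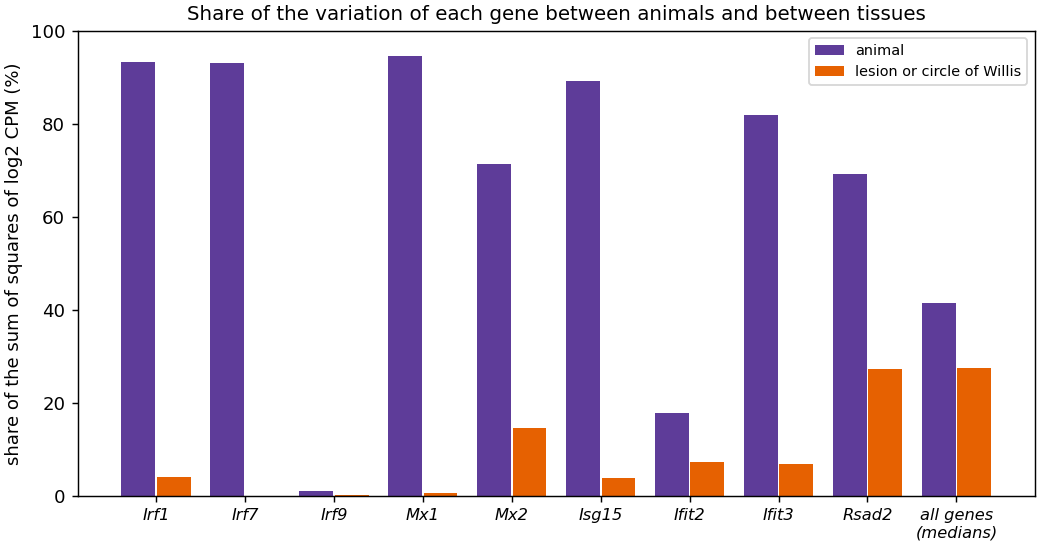
Share of the sum of squares of log2 CPM over the 6 libraries that falls between animals (purple) and between lesion and circle of Willis (orange), for each gene and as medians over all 15367 genes. Bars start at 0 and the rest of each gene's variation is not drawn; animal bars exceed 69% in all genes except Irf9 and Ifit2.

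The 9 genes did not form a single block. Of their 36 pairs, 11 had a Pearson r over 0.5 across the 6 libraries and 11 an r below 0, as a description of libraries that share animals. Irf7 and Isg15 had the closest match (r = 0.96), followed by Mx2 and Isg15 (r = 0.86) and Mx1 and Mx2 (r = 0.81). Irf9 followed Ifit2 (r = 0.67), and Irf1 and Ifit3 ran in opposite order (r = -0.79).

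Over 13571 other genes with a mean of at least 1 CPM, those most like the mean of the 9 standardized genes were Pagr1 (r = 0.991), Tcea3 (0.981), Peo1 (0.979), Mvp (0.979), Klhl25 (0.974) and Tsc2 (0.970), and 103 genes had an r over 0.9. With 6 libraries such values are common, and none of these 6 belongs to a pathway list used here. By single gene, Irf1 was most like Nkg7, Hipk4 and Snrnp25, and Irf7 was most like Alas2 (r = 0.987), the haem synthesis enzyme of red cell precursors, and Tjp3. Alas2 had 681, 218 and 61 counts in the lesions of animals 1, 2 and 3, against 442, 167 and 107 in the circles of Willis. The nearest to Irf9 were Dvl3, Sidt1 and Akap13, to Mx1 Ercc2, Taf8 and Supt5h, to Mx2 Mapk12, Slc45a3 and Ngef, and to Isg15 Park7, Rccd1 and Flad1. Ifit2 was nearest to Mre11a and Arhgef40, Ifit3 to Pck2, Ppme1 and Nop56, and Rsad2 to Ccdc167, Atp13a1 and Ifi27l2b.

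Upstream of the 9 genes, transcripts of the interferons themselves were barely counted. Of 12 ligand genes listed, 11 were in the table and 0 passed the filter. Their counts summed to 0, 2 and 7 in the lesions of animals 1, 2 and 3, against 6, 4 and 0 in the circles of Willis, over the 11 genes together. A gene with 0 counts may have had up to 3, or 0.0424 to 0.0456 CPM at these depths, counting error only. Ifnb1, the interferon beta gene, had 0.043 TPM in the lesion of animal 2 and 0.079 TPM in the circle of Willis of animal 1 and was at 0 elsewhere. The interferon gamma gene Ifng had 0.167 TPM in the lesion of animal 3, against 0.043 and 0.046 TPM in the circles of Willis of animals 1 and 2, and was at 0 in the other 3 libraries. Differences between the tissues in ligand transcripts were not detectable at this depth.

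Receptor genes stood at a higher level and leaned to the lesion. Of 6 tested, 4 were higher and 0 lower in lesions past an unadjusted p of 0.05, against 8.63% and 12% of all genes. Ifngr1, the ligand-binding chain for interferon gamma, had 100.2, 177.8 and 280.2 TPM in the lesions, against 90.3, 82.3 and 107 TPM in the circles of Willis. Its 2 highest libraries were the lesions of animals 2 and 3, and the lesion of animal 1 lay among the circles of Willis. The mean log2 ratio was 0.90 ± 0.33 (SE, n = 3; edgeR adjusted p = 0.203). The partner chain Ifngr2 had a mean log2 ratio of 0.71 ± 0.27 (SE, n = 3; edgeR adjusted p = 0.208).

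The 2 chains of the interferon lambda receptor differed in level, and both were higher in the lesion of each animal. Ifnlr1, at 3.48, 5.09 and 5.81 TPM in the lesions, against 2.67, 2.18 and 2.09 TPM in the circles of Willis, had groups that did not overlap (edgeR adjusted p = 0.191). Il10rb, which also serves the interleukin 10 receptor, had 26.2, 50.1 and 79.4 TPM in the lesions, against 22.4, 27.4 and 27.6 TPM in the circles of Willis (edgeR adjusted p = 0.206). The type I receptor genes Ifnar1 and Ifnar2 were positive in animals 2 and 3 and negative in animal 1, with mean log2 ratios of 0.28 ± 0.27 and 0.38 ± 0.30 (SE, n = 3). Summed macrophage and monocyte markers, 11 genes with none at 0, were at 1186, 1741 and 3244 CPM in the lesions, against 1234, 820.4 and 1158 CPM in the circles of Willis. Of the 11, 4 were higher and 1 lower in lesions past an unadjusted edgeR p of 0.05, against 8.63% and 12% of all genes. The lower gene was Cd163, with log2 ratios of -1.595, -1.477 and -0.632. Mrc1 was lower in the lesions of animals 1 and 2. The summed markers ranked the lesions as Ifngr1 did, and their part in the receptor values was not tested.

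Signal transducers were near even. Of 6 receptor kinase and STAT genes, only Tyk2 was past an unadjusted p of 0.05, with a mean log2 ratio of 0.58 ± 0.24 (SE, n = 3; edgeR adjusted p = 0.226). By that unadjusted limit 8.63% of all genes were higher and 12% lower. Stat3 and Jak1 had mean log2 ratios of -0.10 ± 0.09 and -0.23 ± 0.10 (SE, n = 3).

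Of the 6 other interferon regulatory factors, Irf5 and Irf8, factors of macrophages and dendritic cells, were higher in lesions past that unadjusted limit. The other 4 were on neither side of it, where 8.63% of all genes were higher and 12% lower. Irf8 had 29.0, 33.7 and 107.5 TPM in the lesions, against 30.3, 12.8 and 25.6 TPM in the circles of Willis, and Irf5 had 17.3, 26.8 and 57.3 TPM, against 18.03, 11.4 and 17.4 TPM. In both, the pair of animal 1 was nearly equal and that of animal 3 differed most. The mean log2 ratios were 1.16 ± 0.59 for Irf8 and 0.99 ± 0.49 for Irf5 (SE, n = 3; edgeR adjusted p = 0.233 and 0.229). Both genes rank the lesions as the summed macrophage markers do, a link that was not tested. Irf3, which switches on interferon beta, had a mean log2 ratio of 0.30 ± 0.20 (SE, n = 3).

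Among 14 sensors of nucleic acids and their adaptors, 2 were higher in lesions and 1 was lower by the same limit. The shares of all genes were 8.63% and 12%. Ikbke, a kinase that activates IRF3 and IRF7, had 22.9, 20.4 and 25.9 TPM in the lesions, against 13.2, 11.8 and 12.99 TPM in the circles of Willis. The groups did not overlap, and the mean log2 ratio was 0.88 ± 0.08 (SE, n = 3; edgeR adjusted p = 0.174). Of the 119 other pathway genes tested it alone was over 1.5-fold higher in all 3 animals, and 3 were over 1.5-fold lower (Ddx58, Batf2 and, named after its values were seen, Gbp1), where 2.75% and 5.51% of all genes were. Its relative Tbk1 had a mean log2 ratio of 0.28 ± 0.08 (SE, n = 3; edgeR adjusted p = 0.287).

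Ddx58, which encodes the RNA sensor RIG-I, ran the other way. It had 1.89, 3.97 and 1.16 TPM in the lesions, against 4.11, 8.11 and 3.86 TPM in the circles of Willis. Within each animal the lesion was lower, by log2 ratios of -0.99, -1.09 and -1.71, although the lesion of animal 2 lay among the circles of Willis (edgeR adjusted p = 0.181). Unc93b1, which carries endosomal Toll-like receptors, had 47.0, 91.7 and 210.6 TPM in the lesions, against 44.96, 33.2 and 43.4 TPM in the circles of Willis, again with a small difference in animal 1 and the widest in animal 3 (edgeR adjusted p = 0.225).

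Of 52 other type I interferon-induced genes tested, 3 were higher and 5 lower by the same limit, against 8.63% and 12% of all genes. The list's median of mean log2 ratios was -0.07, against -0.03 over all genes. Bst2, which tethers budding viruses to the membrane, had 126.2, 95.3 and 101.6 TPM in the lesions, against 183.1, 127.8 and 141.1 TPM in the circles of Willis. The groups did not overlap, and the difference was alike in each pair, with a mean log2 ratio of -0.46 ± 0.02 (SE, n = 3; edgeR adjusted p = 0.191). Adar, an editor of double-stranded RNA, and Parp10, an ADP-ribosyltransferase, had -0.47 ± 0.11 and -0.61 ± 0.20 (SE, n = 3; edgeR adjusted p = 0.205 and 0.207).

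On the other side, Ifi27l2b had a mean log2 ratio of 0.51 ± 0.13 (SE, n = 3; edgeR adjusted p = 0.204). Ifitm1, a membrane protein that blocks virus entry, had 443.5, 520.4 and 1599 TPM in the lesions, against 212, 403.6 and 192.7 TPM in the circles of Willis. The groups did not overlap, but the log2 ratios of 1.19, 0.31 and 3.05 spread widely (edgeR adjusted p = 0.248). Oas1i, one of several similar genes of the Oas1 cluster, was at 0 counts in 3 libraries, the lesions of animals 1 and 3 and the circle of Willis of animal 3, and had 44 to 159 in the others, so its ratio is uncertain.

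The 25 interferon gamma-induced genes tested held none past an unadjusted edgeR p of 0.05, where 8.63% of all genes were higher and 12% lower. Their median of mean log2 ratios was 0.05. B2m, the light chain of MHC class I, had 1335, 1867 and 2347 TPM in the lesions, against 1164, 1483 and 1531 TPM in the circles of Willis, a mean log2 ratio of 0.40 ± 0.11 (SE, n = 3; edgeR adjusted p = 0.295). Cxcl9, a chemokine that draws T cells, was higher in the lesions of animals 1 and 3 and lower in that of animal 2, with log2 ratios of 1.50, 1.81 and -0.79. Batf2, at 0.516, 0.742 and 0.554 TPM in the lesions, against 1.23, 1.49 and 0.905 TPM in the circles of Willis, had groups that did not overlap (edgeR adjusted p = 0.279). Igtp, a GTPase of defence against parasites, and Wars, a tRNA synthetase, had mean log2 ratios of -0.31 ± 0.15 and 0.39 ± 0.15 (SE, n = 3).

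Of 13 negative regulators tested, 1 was higher in lesions and 2 were lower by the same limit, against 8.63% and 12% of all genes. Pias1, an inhibitor of STAT signalling, had 8.62, 10.99 and 9.52 TPM in the lesions, against 13.8, 17.2 and 14.9 TPM in the circles of Willis, and the groups did not overlap. Its mean log2 ratio was -0.63 ± 0.04 (SE, n = 3; edgeR adjusted p = 0.182). The phosphatases Ptpn2, which acts on JAK and STAT proteins, and Ptpn11 had mean log2 ratios of 0.55 ± 0.14 and -0.43 ± 0.13 (SE, n = 3; edgeR adjusted p = 0.214 and 0.228), and the corepressor Irf2bp1 had -0.34 ± 0.17.

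**Figure D4:**
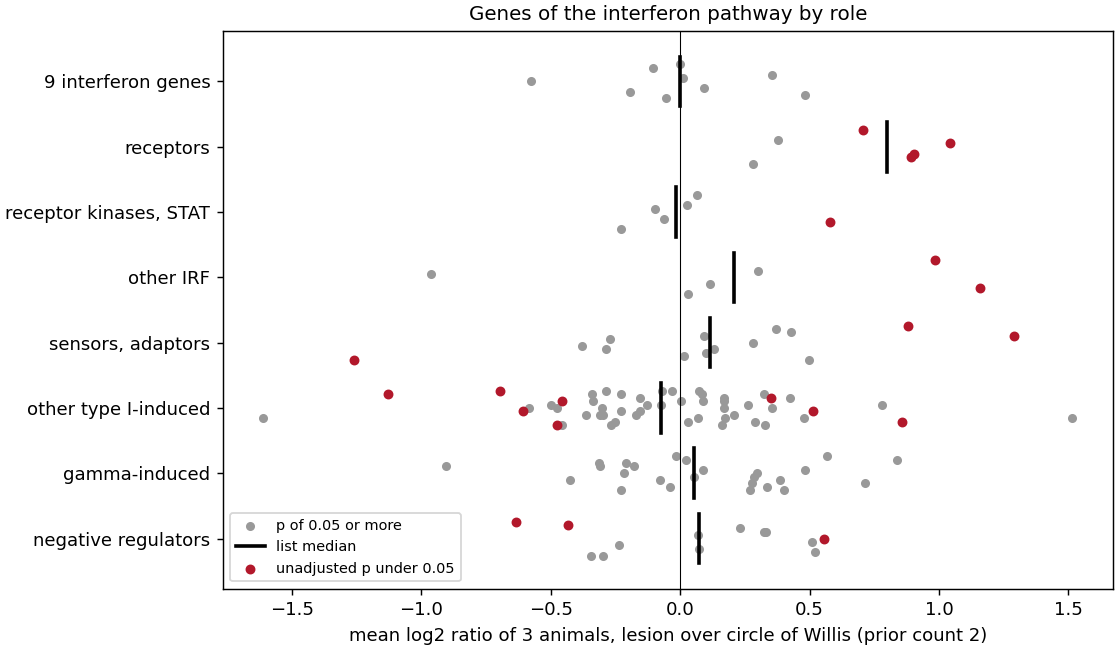
Mean log2 ratio of lesion over circle of Willis for each tested gene, by role in the interferon pathway. Red points have an unadjusted edgeR p under 0.05, grey points do not, and black bars are list medians; the 9 interferon genes hold no red point, and the receptors have a median of 0.80.

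Over the 119 other pathway genes tested, 13 were higher and 8 lower by that limit, against 8.63% and 12% of all genes, and 0 passed at an adjusted p under 0.05 in edgeR. Plasmacytoid dendritic cells are a main source of type I interferon. Their summed markers were at 22.8, 40.3 and 44.1 CPM in the lesions, against 27.5, 41.3 and 24.4 CPM in the circles of Willis. Most of that sum came from Tcf4 and Runx2, which other cells also express, and the defining marker Siglech had 1, 6 and 23 counts in the lesions, against 4, 3 and 1 in the circles of Willis. Of the 5 markers of these cells tested, 2 (Runx2 and Spib) were higher in lesions past an unadjusted edgeR p of 0.05. None was lower, and the shares of all genes were 8.63% and 12%. The part of plasmacytoid dendritic cells in the interferon gene values was not tested. Neutrophil markers were at 18.8, 206.1 and 75.6 CPM in the lesions, against 11.1 to 14.2 CPM in the circles of Willis. Their highest library was also that of Ifit3, a link that was not tested. Of the neutrophil list, Cxcr1 alone was not highest in the lesion of animal 2. It had 1 count there, against 23 and 88 in the lesions of animals 1 and 3. T and NK cell markers were at 42.4, 31.9 and 157.1 CPM in the lesions, against 34.3, 14.5 and 23.4 CPM in the circles of Willis. Cd8a carried the high value of the lesion of animal 3, with 8674 counts there and 192 to 897 in the other 5 libraries. Klrb1 was at 0 in each library, whereas Nkg7 had 126 to 440 counts, Prf1 74 to 203 and Ncr1 11 to 54.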

How the data were processed

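RNA of 3 lesions and 3 circles of Willis was made into stranded mRNA libraries. CLC genomics workbench served the authors for mapping the read pairs (Rnor6), and CASAVA appears in the submitters' processing notes. How reads were assigned to genes, and whether by strand, was not given in the sources read. Deposited by the authors were raw counts per gene and TPM (transcripts scaled for gene length and library total). The authors' RPKM, scaled CPM and comparison columns, which hold fold changes and p-values, were not used.

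Counts were tested with edgeR 4.0.16 in R 4.3.3 (TMM factors, filterByExpr, quasi-likelihood F test, Benjamini-Hochberg adjustment over all 15367 genes) with animal and tissue as terms. Limma 3.58.1 gave the 95% intervals and DESeq2 1.42.0 a second test. Pairs come from the same animal, and the deviations of same-animal libraries correlated at 0.389, 0.30 and 0.0688. Log2 ratios use CPM with a prior count of 2. Depth was 65823027 to 70705938 counts, so counting error is small for all 9 genes, and n = 3 animals limits the precision.

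The 9 genes and the pathway and marker lists were chosen with earlier results of these data known. Named genes are the 9, all ligands and receptors, for each other list up to 4 with the smallest edgeR p and up to 2 with the largest mean log2 ratio in size, and those most correlated with the 9. Alternatives were scaling, filter, tool, block, fold limit, TPM, and leaving out each animal. Promoters are RefSeq GRCr8, and positions of genes are Rnor6 as in the files. Some genes that this rule names are not reported here.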

Additional observations from a re-analysis of the deposited data

How the results depend on the processing

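No count of the 9 genes that differed between lesion and circle of Willis moved, except without animal 1. Without it, the number lower at an unadjusted edgeR p under 0.05, and the number over 1.5-fold lower in every remaining animal, was 1 (Mx2). Of all 15601 genes tested in that setting, 1808 were lower at the same unadjusted limit. How many of all genes passed the fold rule there was not counted, so the fold count has no share beside it. Both counts of the 9 genes thus ranged over 0 to 1 as each animal was left out. Of 108 log2 ratios of single genes under the alternatives, 94 kept their sign and their side of the threshold, and 14 changed sign, 8 of them of Irf7, reported at -0.00024. Irf7 was at 0.027 with DESeq2 size factors, 0.032 with no filter on low counts, 0.028 in DESeq2, 0.0082 in limma-voom, 0.025 with no replicate block and 8.2e-06 without mitochondrial genes, and ranged over -0.11 to 0.13 as each animal was left out. Irf9 was at -0.0025 with library totals only and -0.0099 in the deposited TPM, and ranged over -0.19 to 0.19. Mx1 was at 0.042 with no replicate block and ranged over -0.28 to 0.035, and Ifit2 over -0.17 to 0.048. The lowest adjusted p of any of the 9 was 0.0966. Over all genes, DESeq2 called 1831 genes at an adjusted p under 0.05 where edgeR called 0, and edgeR with no replicate block called 1.

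In alternatives chosen after seeing the data, 6 of the 9 genes differed between animals under each of 3 other scalings (10.2% to 10.5% of all genes), and 2 to 5 did as each library was left out (4.67% to 17.8% of all genes). Both libraries of animal 1 were on top for 5 of the 9 under the same 3 scalings (9.78% to 11.7% of all genes). No tissue of unoperated rats, and 3 animals of a single experiment, limit these values.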
